A study of Homo sapiens with 10 samples.

Results

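The 10 genes DUSP4, DUSP5, DUSP6, SPRY1, SPRY2, SPRY4, SPRED1, SPRED2, ETV4 and ETV5 were taken as transcript proxies of RAS-ERK output. Their transcripts were followed in 10 poly(A) RNA-seq libraries of SHSY5Y cells, an established human neuroblastoma line. The genes were chosen by name out of 23415 genes with numeric values in both deposited tables. The rule used no measured value, but earlier results of these data were known when the choice was made. In 3 libraries the cells had received an siRNA against LncND at 100 nM, and 3 libraries with a scrambled siRNA were its control. In 2 libraries they had received a mimic of miR-143-3p at 50 nM, against 2 with a scrambled miRNA. Cells were grown in DMEM/F12 medium with serum and antibiotic and harvested at 72 h. LncND is a primate long non-coding RNA, tied by the title of the series to Notch signalling and to a miRNA that it binds. The doses of the scrambled controls are not given in the labels, and no untreated cells were analysed here. All groups are the same tumour line, which the labels call neural progenitors or neuroblastoma.

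ERK is the last kinase of a cascade that runs from receptor tyrosine kinases through RAS, RAF and MEK. When it is active it induces genes that turn the cascade down again. DUSP4, DUSP5 and DUSP6 encode dual-specificity phosphatases that remove the activating phosphates from ERK and related kinases. Sprouty proteins (SPRY) and the related SPRED proteins act upstream, between the receptor and RAF, and SPRED proteins recruit neurofibromin to RAS. ETV4 and ETV5 encode ETS transcription factors of the PEA3 group, which are ERK-responsive and carry the signal to other genes. Transcript levels of these genes are widely read as a proxy of ERK output. miR-143 is reported to act on RAS signalling. ERK phosphorylation itself was not measured in these data.

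All 10 genes passed the filter of a mean of at least 1 FPKM in both tables, with every group mean above 1 FPKM. FPKM counts sequenced fragments relative to transcript length and library total, so levels can be compared between genes within a table. The level of LncND itself was not analysed here, so neither the knockdown nor the uptake of the mimic has a check in these values. Of 10 noradrenergic neuroblastoma markers, 9 had a mean of at least 1 FPKM in each table, and their summed FPKM was 1515 to 1563 with scrambled siRNA, 1574 to 1650 with LncND siRNA, 2516 to 2526 with scrambled miRNA and 2458 to 2479 with the mimic. LncND siRNA replicate 1 stood apart, with 1224670 FPKM for the Y RNA gene RNY4 and a summed FPKM of 1672220, against 423044 to 472598 in the other 9 libraries. Its lowest correlation with a library of its own group across genes was 0.988. Replicate 2 had the same value because it is the correlation of replicates 1 and 2 with each other, and replicate 3 had 0.9892. The correlation of a pair cannot show which of its libraries stands apart. Results are given with this library, followed by values without it for the 10 genes, the pathway lists and the difference between the comparisons. No pair of libraries was identical.

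Most markers of other cells stood below 1 FPKM, and their sums were higher with LncND siRNA. For 8 Schwann and glial markers, 1 of which had a mean of at least 1 FPKM, the sums were 3.64 to 3.79 FPKM with scrambled siRNA and 6.74 to 7.09 with LncND siRNA, and S100B accounted for most of both. For 8 endothelial and blood markers the sums were 1.37 to 1.58 and 3.17 to 3.74, and for 6 epithelial markers 1.04 to 1.31 and 3.43 to 3.95. CD68 and CLDN4 were the markers of these last lists with a mean of at least 1 FPKM in the siRNA table, and the miRNA table had none. With scrambled miRNA and the mimic the sums were 4.42 to 5.34 and 3.55 to 3.61 for the Schwann and glial markers, 1.00 to 1.11 and 1.38 to 1.95 for the endothelial and blood markers, and 1.46 to 1.73 and 1.16 to 1.51 for the epithelial markers. The defining genes FABP7, CDH19, CDH5, PECAM1, HBB, KRT5 and KRT14 stood at or near the lowest listed value of 0.001 FPKM. The part of these markers in the results below was not tested.

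The sequence that the mimic carries is shown first, because matches to its seed are what a directly bound transcript would hold. The mature miRNA (RefSeq, GRCh38.p14, chr5:149428978-149428998, plus strand) is printed with its seed, bases 2 to 8, in capitals. Matches searched in the longest annotated 3′ UTR of each gene (GENCODE release 29, GRCh38) were TCATCTCA, TCATCTC and CATCTCA, on the sense strand, each site being counted once under the longest match. Among the 9 genes other than SPRY4, DUSP4 held 1 match to TCATCTCA and 2 to CATCTCA in a UTR of 3962 bases, at positions 975, 831 and 953. DUSP5, DUSP6, SPRY1, SPRY2, SPRED1, SPRED2, ETV4 and ETV5 held none, with UTRs of 675 to 5585 bases. A match outside the 10 genes is printed for MAPK3, which encodes ERK1, the kinase that the phosphatases act on, with the match in capitals.
miR-143-3p: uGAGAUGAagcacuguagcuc
MAPK3, position 396: gccatgcctgccccccTCATCTCAttca
Of the 11215 genes tested with the mimic that had an annotated 3′ UTR, 24.8% held a match. The share was 29.3% among genes that were lower with the mimic and 19.8% among those that were higher. A match in this search is a description of the letters, and binding was not measured.

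**Figure D1:**
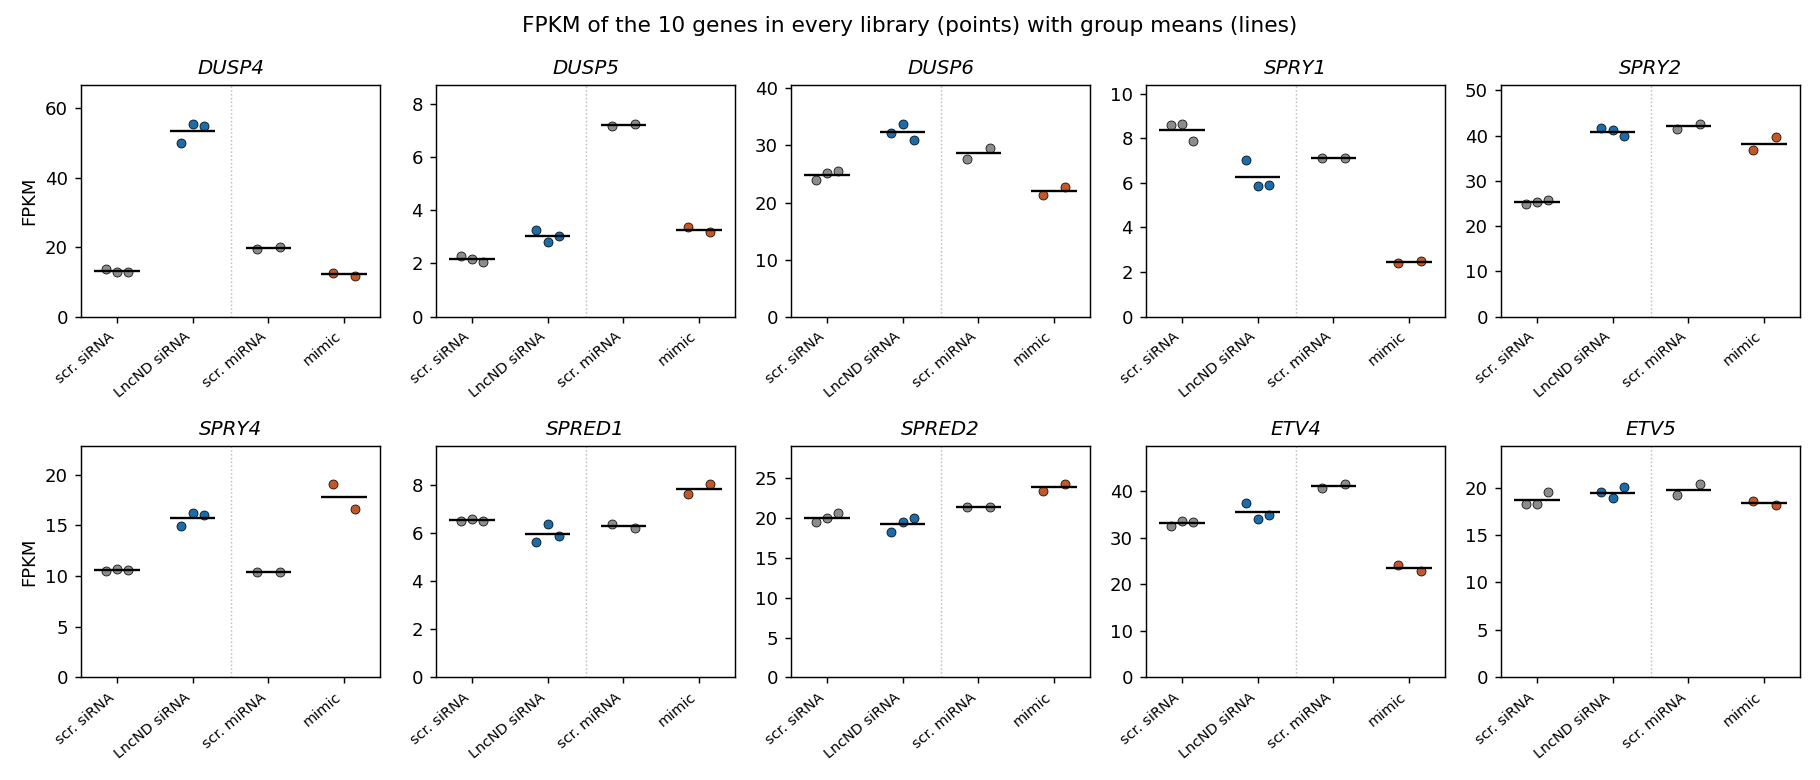
FPKM of each of the 10 genes (y axis, linear, from 0) in every library, by group (x axis), with points for libraries and lines for group means. The dotted line divides the siRNA table from the miRNA table. DUSP4 stands at 50.1 to 55.6 FPKM with LncND siRNA and at 20.1 or lower elsewhere, and SPRY1 and DUSP5 are lower with the mimic than with scrambled miRNA.

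In cells given scrambled siRNA the most abundant of the 10 transcripts was ETV4, at 33.1 ± 0.58 FPKM (mean ± SD here and below, with n = 3 in the siRNA groups and n = 2 in the mimic and scrambled miRNA groups). SPRY2 and DUSP6 followed at 25.3 ± 0.39 and 24.9 ± 0.80 and overlapped each other. SPRED2, ETV5, DUSP4, SPRY4, SPRY1 and SPRED1 lay between 20.1 and 6.55 FPKM in that order, none overlapping its neighbour. DUSP5 was lowest, at 2.17 ± 0.12 FPKM. LncND siRNA changed the head of this order. DUSP4 moved from the sixth place to the first, above SPRY2, ETV4 and DUSP6, while ETV5 overlapped SPRED2 and SPRY1 overlapped SPRED1. With scrambled miRNA SPRY2 led at 42.1 ± 0.81 FPKM, ahead of ETV4 at 41.1 ± 0.52, and SPRED1 was lowest at 6.30 ± 0.11. With the mimic SPRY2 stayed first and SPRY1 was last, below DUSP5, while SPRED2 overlapped ETV4 and ETV5 overlapped SPRY4.

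The first comparison asked how these transcripts stood after LncND siRNA. DUSP4 rose most, and SPRY2, SPRY4, DUSP6 and DUSP5 rose by smaller amounts, while SPRY1 fell. SPRED1, SPRED2, ETV4 and ETV5 did not pass the test. In bulk RNA, a change in the number of cells that express a gene and a change in its RNA per cell cannot be told apart. With limma on log2(FPKM + 1) and Benjamini-Hochberg adjustment over 12601 genes, 5 of the 10 genes were higher and 1 was lower at an adjusted p under 0.05, 6 in all, against 66.9% of all genes tested, or 36.6% higher and 30.3% lower. Groups did not overlap for 8 of the 10, against 70.9% of all genes. At least 1.5-fold higher were 2 of the 10, DUSP4 and SPRY2, against 8.28% of all genes, and none of the 10 was at least 1.5-fold lower, against 4.06%. The median change of the 10 genes was 0.22 and that of all genes 0.02 on the log2 scale. The number of the 10 that passed in either direction was thus near the background.

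Among the phosphatases, DUSP4 (chr8:29190578-29208267 in hg19, as are all loci of these genes), a nuclear phosphatase of ERK and other MAP kinases, was at 13.6, 12.8 and 13.0 FPKM with scrambled siRNA and at 50.1, 55.6 and 54.9 with LncND siRNA. All 3 LncND siRNA libraries lay far above the highest control. The difference was 1.95 ± 0.047 (SE, log2) with an adjusted p of 2.56e-09 in limma, a ratio of 4.08 between the means and the 27th largest absolute change among the 12601 genes. DUSP6 (chr12:89741836-89746296), the cytoplasmic phosphatase specific for ERK, was at 24.0, 25.1 and 25.5 FPKM in controls and at 32.2, 33.8 and 31.0 with LncND siRNA, again with no overlap. Its rise was 0.37 ± 0.043 (adjusted p = 3.56e-05). DUSP5 (chr10:112257624-112271302), a nuclear phosphatase that also anchors ERK, was at 2.28, 2.18 and 2.05 FPKM in controls and at 3.24, 2.81 and 3.02 with LncND siRNA. Its groups were apart at a low level, with a rise of 0.34 ± 0.059 (adjusted p = 0.000504). In a gene this low the pseudocount shrinks the fold, and with 0.1 in place of 1 the rise was 0.46.

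The Sprouty genes did not move together. SPRY2 (chr13:80910111-80915086), an inhibitor of receptor-to-RAS signalling, was at 24.9, 25.4 and 25.7 FPKM in controls and at 41.7, 41.2 and 39.9 with LncND siRNA. The libraries of each group were close to one another, and the rise of 0.67 ± 0.035 had an adjusted p of 1.61e-07. SPRY4 (chr5:141689991-141704620), which also restrains RAF activation, was at 10.5, 10.7 and 10.6 FPKM in controls and at 14.9, 16.3 and 16.1 with LncND siRNA, a rise of 0.53 ± 0.042 (adjusted p = 2.19e-06). SPRY1 (chr4:124317949-124324915), a further inhibitor of the same family, went the other way. It was at 8.59, 8.66 and 7.88 FPKM in controls and at 7.04, 5.84 and 5.91 with LncND siRNA, and fell by 0.37 ± 0.066 (adjusted p = 0.000647).

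The SPRED genes and the ETS factors differed little. SPRED1 (chr15:38545051-38649450) was at 6.52, 6.62 and 6.52 FPKM in controls and at 5.63, 6.38 and 5.88 with LncND siRNA, lower in all 3 libraries by -0.12 ± 0.049 with an adjusted p of 0.0538. SPRED2 (chr2:65537984-65659656) was at 19.5 to 20.7 and at 18.3 to 20.0 FPKM, with overlapping groups (adjusted p = 0.247). ETV4 (chr17:41605210-41623800) was at 32.5, 33.6 and 33.3 FPKM in controls and at 37.5, 34.1 and 35.0 with LncND siRNA, without overlap and with an adjusted p of 0.0658. ETV5 (chr3:185764105-185826901) was at 18.2 to 19.5 and at 18.9 to 20.0 FPKM, with overlap and an adjusted p of 0.24. Without LncND siRNA replicate 1 each of the 10 genes kept its direction and its side of the threshold, with DUSP4 at 1.99, SPRY2 at 0.66 and SPRY1 at -0.45. SPRED1 and ETV4 passed when LncND siRNA replicate 2 was left out (adjusted p = 0.0185 and 0.0414), and SPRED1 also under median-ratio scaling and quantile normalization (0.033 and 0.0122). Whether replicates came from separate cultures is not in the labels, so the p-values measure a spread between libraries that may be technical, and 3 against 3 libraries cannot go below 0.1 in an exact 2-sided permutation test of a single gene.

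The other genes of the pathway were taken from 6 lists of 111 genes. Of 87 tested with LncND siRNA, 33 were higher and 33 lower, with a median change of -0.02, beside 36.6% higher and 30.3% lower of all genes tested, which is also the background of the list counts that follow. The other MAP kinase phosphatases were higher in 7 of 9 and lower in 2 of 9, with a median of 0.81. DUSP10, a phosphatase of the stress kinases p38 and JNK, went from 1.19 to 3.88 FPKM (1.16), and DUSP8, which acts on the same stress kinases, from 5.56 to 12.5 (1.04). DUSP9, an ERK phosphatase, is among the 7 but passed the filter only through the group in which it was high, at 0.490 and 1.86 FPKM, so its call is no independent support. The same holds for FGFR3 among the receptors and LIF among the transcripts of ERK output, both counted as higher. Of 14 further transcripts read as ERK output, 7 were higher and 2 lower. ARC, an immediate early gene of neurons, rose by 0.86 and EPHA2, a receptor induced by RAS-ERK activity, by 0.71, while MYC fell by 0.85.

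Upstream of the 10 genes, RRAS, a RAS-related GTPase, rose from 11.2 ± 0.95 to 32.1 ± 0.72 FPKM (1.44), SHC1, an adaptor that couples receptors to RAS, from 177 to 306 FPKM (0.78). RET, which encodes a receptor for GDNF-family ligands, rose by 0.96. The cascade list held 9 higher and 8 lower of 24, and the receptor list 5 higher and 6 lower of 13. Among other brakes on the pathway, 4 of 15 were higher and 7 lower. SPRED3, the third SPRED gene, was in the first group, from 2.79 ± 0.22 to 5.04 ± 0.19 FPKM (0.68, adjusted p = 2.97e-06). The ETS factors and their repressors were lower in 8 of 13 and higher in 1, with falls of 0.73 for ELK3 and 0.65 for ETV3, which encodes a repressor of ETS sites. The exception was ATXN1, whose product works with the repressor CIC, at 1.01 and 2.11 FPKM (0.63). Without LncND siRNA replicate 1, a setting chosen for the lists after the data were seen, the pathway count was 35 higher and 31 lower. The phosphatases, the receptors and the transcripts of ERK output had the same counts as with it. The cascade had 10 higher and 8 lower, the other brakes 4 higher and 5 lower, and the ETS list 2 higher and 8 lower. The genes named from the lists kept their direction and their call, with RRAS at 1.42, DUSP10 at 1.14 and RET at 1.00.

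The second comparison asked how the same transcripts stood after the miR-143-3p mimic. SPRY1, DUSP5, ETV4, DUSP4, DUSP6 and SPRY2 fell, SPRY4, SPRED1 and SPRED2 rose, and ETV5 did not pass. By the same test over 12558 genes, 6 of the 10 were lower and 3 higher, 9 in all, against 63.3% of all genes, or 38.6% lower and 24.6% higher. Groups did not overlap for any of the 10, against 81.9% of all genes with groups apart. At least 1.5-fold lower were 4 of the 10, namely SPRY1, DUSP5, ETV4 and DUSP4, against 9.13% of all genes, and 1 was at least 1.5-fold higher, SPRY4, against 3.98%. The median change of the 10 was -0.25 and that of all genes -0.06. The balance of all genes depends on the scaling, with 3094 higher and 4853 lower as deposited and 4145 higher and 3854 lower after quantile normalization, under which 3 of the 10 were higher and 5 lower. With 2 libraries in each group, an exact 2-sided permutation test of a single gene cannot go below 0.333, so the calls rest on the spread that limma shares across genes.

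The 3 phosphatase transcripts were all lower. DUSP5 was at 7.16 and 7.26 FPKM with scrambled miRNA and at 3.36 and 3.17 with the mimic with a ratio of 2.21 between the means, and fell by 0.94 ± 0.066 (adjusted p = 2.23e-06 in limma). DUSP4 was at 19.4 and 20.1 FPKM in controls and at 12.7 and 11.8 with the mimic. It fell by 0.65 ± 0.055 (adjusted p = 7.4e-06). DUSP6 was at 27.7 and 29.5 FPKM in controls and at 21.4 and 22.7 with the mimic, and fell by 0.36 ± 0.052 (adjusted p = 0.000226).

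The Sprouty genes again split. SPRY1 was at 7.13 and 7.10 FPKM with scrambled miRNA and at 2.42 and 2.49 with the mimic, and fell by 1.23 ± 0.067 (adjusted p = 4.83e-07). The ratio of its means was 2.90, the largest change of the 10 genes with the mimic and the 185th among 12558. SPRY4 was at 10.4 and 10.4 FPKM in controls and at 19.1 and 16.6 with the mimic, and rose by 0.72 ± 0.066 (adjusted p = 1.27e-05). SPRY2, at 41.5 and 42.7 FPKM in controls and 36.8 and 39.7 with the mimic, fell by 0.14 ± 0.049 (adjusted p = 0.0345). This small fall lost its call in 7 of 12 alternative settings, with adjusted p from 0.00807 to 0.415, among them each of the leave-outs of mimic replicate 1 and of either control library.

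Of the remaining genes, ETV4 fell and the SPRED genes rose. ETV4 was at 40.7 and 41.5 FPKM in controls and at 24.2 and 22.9 with the mimic, and fell by 0.78 ± 0.047 (adjusted p = 8.98e-07). Its close relative ETV5 was at 19.2 and 20.3 FPKM and at 18.5 and 18.1, a difference of -0.10 ± 0.051 with an adjusted p of 0.0984. SPRED1 was at 6.37 and 6.22 FPKM in controls and at 7.64 and 8.04 with the mimic, and rose by 0.28 ± 0.061 (adjusted p = 0.00306). SPRED2 was at 21.4 FPKM in both controls and at 23.5 and 24.3 with the mimic, a rise of 0.15 ± 0.047 (adjusted p = 0.0178). This call was lost without mimic replicate 2 and without either control library (adjusted p = 0.0696, 0.0798 and 0.0818).

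Of 86 pathway genes tested with the mimic, 39 were lower and 23 higher, with a median change of -0.10, beside 38.6% lower and 24.6% higher of all genes tested, which is also the background of the list counts that follow. The other transcripts of ERK output were lower in 8 of 14 and higher in 4. VGF, a secreted neuropeptide precursor induced by growth factors, went from 509 ± 18.3 to 171 ± 2.77 FPKM and fell by 1.57, EPHA2 fell by 1.56 and the immediate early factor EGR1 by 1.29. The cascade list was lower in 12 of 25 and higher in 8. MAPK3 went from 36.4 ± 0.72 to 17.2 ± 1.40 FPKM (-1.05, adjusted p = 5.67e-07), and the RAS-related RRAS2 from 11.8 to 5.76 FPKM (-0.92).

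Among the receptors 5 of 12 were lower and 1 was higher. PDGFRB, a receptor for platelet-derived growth factor, went from 22.3 ± 0.39 to 7.30 ± 0.16 FPKM (-1.49), and RET, which had risen with LncND siRNA, fell by 1.07. The other brakes were lower in 5 of 15 and higher in 4. IL17RD, also known as SEF and an inhibitor of FGF signalling, fell by 0.99, from 71.8 ± 1.14 to 35.6 ± 1.07 FPKM. Of the other MAP kinase phosphatases 3 of 8 were lower and 2 higher. DUSP7, an ERK phosphatase, and DUSP8 rose by 0.77 each. DUSP9, at 2.21 and 0.929 FPKM, and FOS among the transcripts of ERK output, at 1.90 and 0.589, are counted as lower but passed the filter only through the control group. The ETS factors and their repressors were lower in 6 of 13 and higher in 5, with falls of 0.77 for ELK3 and 0.61 for ELK1, which is itself a substrate of ERK.

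**Figure D2:**
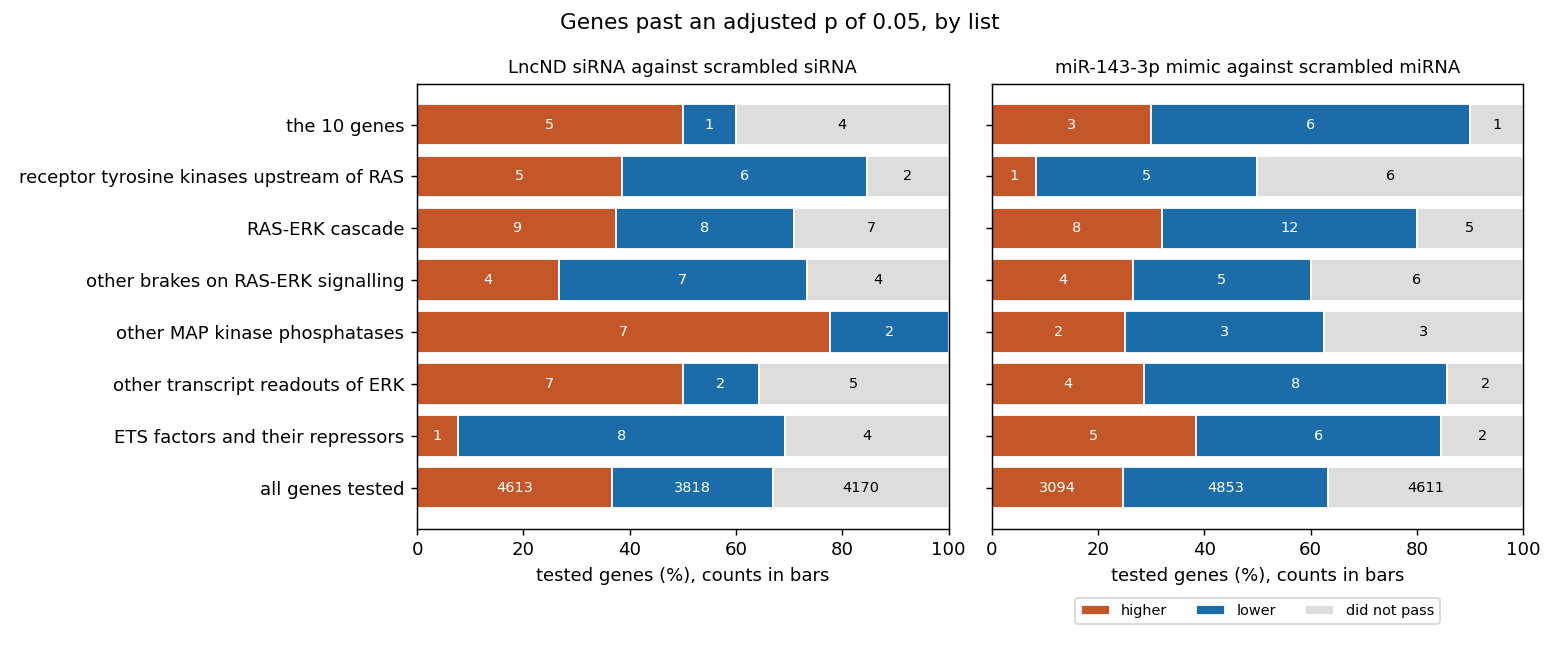
Percent of the tested genes of each list (y axis, 7 lists and all genes) that were higher, lower or did not pass an adjusted p of 0.05 (x axis), with LncND siRNA on the left and the mimic on the right, and counts in the bars. The other MAP kinase phosphatases were higher in 7 of 9 with LncND siRNA, and the 10 genes were lower in 6 of 10 with the mimic.

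Set side by side, 4 of the 10 genes rose with LncND siRNA and fell with the mimic, namely DUSP4, DUSP5, DUSP6 and SPRY2, against 10.6% of the 12327 genes tested in both tables. The fall of SPRY2 is the one that lost its call in 7 of 12 alternatives. SPRY1 fell in both and SPRY4 rose in both. ETV4, SPRED1 and SPRED2 passed with the mimic alone. The 2 comparisons share no control library, and the difference between them was tested with limma over all 10 libraries at once, where an offset between the tables cancels. It passed for 9 of the 10 genes, against 60.2% of those 12327 genes. The median absolute difference was 0.77 for the 10 genes and 0.26 for all.

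The differences of the mimic effect from the LncND siRNA effect were -2.60 ± 0.073 for DUSP4 (adjusted p = 2.49e-11), -1.29 ± 0.086 for DUSP5 and -0.73 ± 0.069 for DUSP6. All 3 phosphatases thus stood lower after the mimic than after LncND siRNA, relative to their own controls. SPRY2 differed by -0.81 ± 0.059, and SPRY1, though lower in both, by -0.86 ± 0.097 (adjusted p = 6.34e-06). ETV4 differed by -0.88 ± 0.065, SPRED1 by 0.40 ± 0.075 and SPRED2 by 0.21 ± 0.064. SPRY4 was the gene that did not pass, at 0.19 ± 0.078 (adjusted p = 0.0507, and 0.00579 to 0.283 over 18 alternative settings, 5 of which gave a call). ETV5 passed narrowly at -0.16 ± 0.064 (adjusted p = 0.0435) and lost the call in 10 of the 18. Without LncND siRNA replicate 1 the same 9 genes passed, with DUSP4 at -2.64, SPRY1 at -0.79 and ETV5 at -0.16 (adjusted p = 0.0498). Agents and doses differ between the comparisons, at 100 and 50 nM, so the sizes describe these libraries and not equal treatments.

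**Figure D3:**
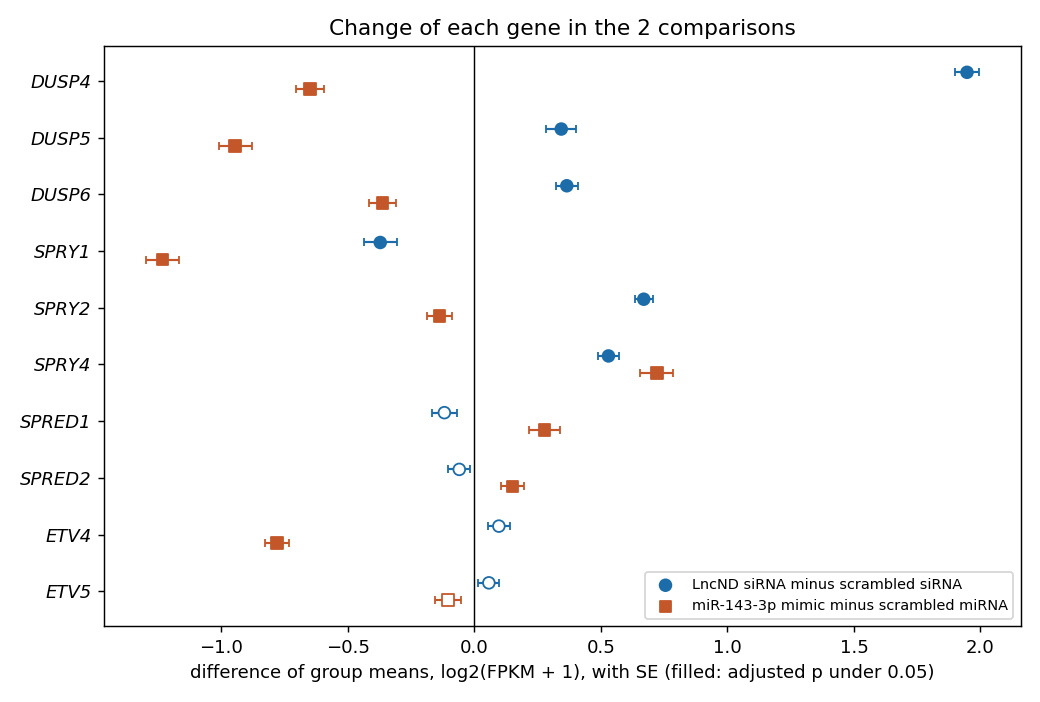
Difference of group means on the log2(FPKM + 1) scale (x axis) for each of the 10 genes (y axis), with LncND siRNA as circles, the mimic as squares, bars for the SE of limma, and filled symbols for an adjusted p under 0.05. DUSP4, DUSP5, DUSP6 and SPRY2 have filled symbols on opposite sides of 0, and SPRY1 and SPRY4 have both on 1 side.

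**Figure D4:**
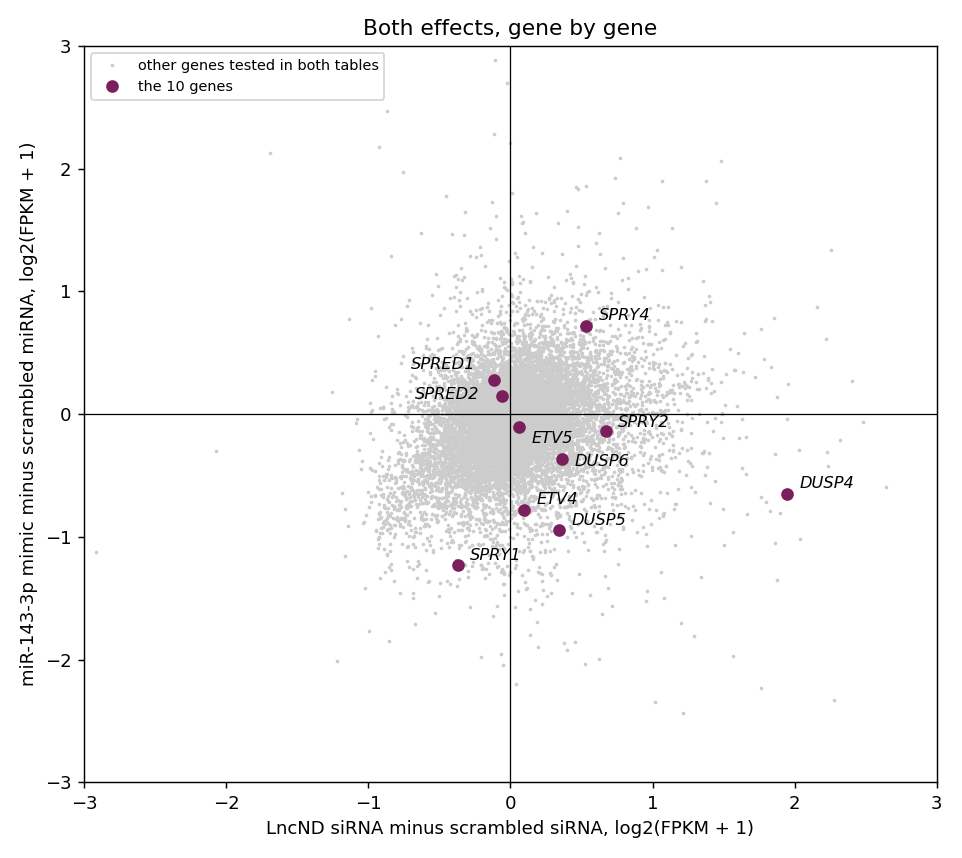
Change with LncND siRNA (x axis) against change with the mimic (y axis), both log2(FPKM + 1), for 12327 genes tested in both tables, of which 4 lie outside the axes. DUSP4 lies far to the right of the other 9 genes, at 1.95 and -0.65, and SPRY1 is the lowest of the 10, at -0.37 and -1.23.

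The scrambled controls of the 2 tables did not hold the same levels of these genes. DUSP5 was at 2.17 FPKM with scrambled siRNA and 7.21 with scrambled miRNA, a ratio of 3.32, which is larger than either of its treatment effects. SPRY2 stood at 25.3 and 42.1 FPKM (1.66), DUSP4 at 13.1 and 19.7 (1.5) and ETV4 at 33.1 and 41.1 (1.24). The other 6 genes had ratios from 0.85 for SPRY1 to 1.15 for DUSP6. The SPRY2 level with scrambled miRNA was thus close to the 40.9 ± 0.92 FPKM reached with LncND siRNA. The tables were normalized separately, so these ratios have no test, and the table and the control agent cannot be told apart.

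Patterns over the 10 libraries were compared after each table had been centred on its own mean. The libraries fall into 4 groups, so each coefficient reflects chiefly the group means, and 3 to 1167 genes of 12326 correlated above 0.9 with one or another of the 10. The gene most like DUSP4 was LRPAP1 (r = 0.999), although its changes, 0.62 and -0.20, were smaller. LY6E followed DUSP5 (r = 0.992) with changes of 0.27 and -0.93 against 0.34 and -0.94, and GALNT16 followed SPRY1 (r = 0.995) with -0.33 and -1.22 against -0.37 and -1.23. For SPRY4 it was KCNJ8 (r = 0.996) with 0.50 and 0.68, and for ETV4 PPIC (r = 0.994) with 0.09 and -0.89. The remaining nearest genes were TRIAP1 for SPRY2, COPB2 for DUSP6, PRR16 for SPRED1, NCK2 for SPRED2 and ZNF584 for ETV5, at 0.939 to 0.995.

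Among the 10 genes, DUSP4 and SPRY2 had the most similar pattern (r = 0.982), followed by DUSP5 and ETV4 (0.959). DUSP5 and SPRED1 were the most opposed (-0.961), and SPRY1 and SPRY4 stood at -0.92. The related pairs SPRED1 and SPRED2 and ETV4 and ETV5 had coefficients of 0.879 and 0.704.

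RefSeq promoter windows (GRCh38.p14, 250 bases before to 50 after the start) were at hand for DUSP6, SPRY1, SPRY2, SPRY4, SPRED1 and SPRED2, with 10 windows in all. None held the ETS motif CCGGAAGT, the CIC motifs TGAATGAA and TGAATGGA, or the CRE motif TGACGTCA on either strand. These stood in 4.14%, 2.63% and 1.85% of 35116 windows of all genes. The result says only that these letters are not in these windows. Promoters of DUSP4, DUSP5, ETV4 and ETV5 were not analysed here.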

How the data were processed

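Poly(A) RNA of SHSY5Y cells was sequenced from 10 libraries, isolated with the MirVana kit and prepared with a stranded mRNA kit per the labels' protocols. FPKM values were deposited by the authors in 1 table for the siRNA and 1 for the miRNA libraries, and these deposited FPKM values are the only measurement score used here. Per the submitters' processing notes, TopHat 1.0.0, Cufflinks and hg19 were used. What annotation, strandedness of counting and pre-deposit filter they used is not given in the sources used here. No other row of the tables overlapped the locus of one of the 10 genes. The sequencing depth is unknown here, so no counting interval is given.

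The 1304 rows on unplaced or alternative sequences were dropped, and a repeated name kept the row with the highest mean. Status words stood in 256 rows of the siRNA table and 246 of the miRNA table, which were left out, GAB2 in the siRNA table among them. log2(FPKM + 1) was tested with limma 3.58.1 in R 4.3.3 (eBayes with trend), separately in each table, where a gene's mean reached 1 FPKM. The 2-sided p-values were adjusted by Benjamini-Hochberg over all tested genes, with a threshold of 0.05. The scale understates changes of low genes. The method was tested on simulated data with independent noise of each gene's own spread. Such data cannot check the scaling or whether replicates are technical.

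The 10 genes, the 6 pathway lists and the markers were chosen with earlier results of these data known. From each list and comparison, up to 3 genes with the largest change among those past the threshold, with groups apart and at least 1.5-fold, were named, and a few items, the seed search of SPRY4 among them, are not reported here. Alternatives covered the pseudocount, filters, scaling, the eBayes trend, a replicate block, repeated names and leaving out each library.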

Additional observations from a re-analysis of the deposited data

How the results depend on the processing

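Over 14 alternatives with LncND siRNA and 12 with the mimic, no value of the 10 genes changed direction. Of their 20 effects, 16 kept their side of the threshold in every alternative, and 244 of 258 single values did. With LncND siRNA, 4 to 6 of the 10 genes were higher. The count of lower genes went from 1 to 2 under median-ratio scaling and under quantile normalization, and was 1 to 2 over the libraries left out. Pathway genes higher with LncND siRNA numbered 20 in place of 33 with a filter at a mean of 5 FPKM, where fewer genes were tested. With the mimic, 5 to 6 of the 10 genes were lower and 2 to 3 higher. Quantile normalization moved the split of all genes called with the mimic from 3094 higher and 4853 lower to 4145 and 3854, and the median-ratio split was 3897 and 4073. The difference between the comparisons passed for 8 to 10 of the 10 genes.

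Replicate numbers were not shown to pair the libraries. In the siRNA table same-numbered deviations correlated at 0.0682, 0.207 and -0.0532, and differently numbered ones at -0.159 to 0.0779. In the miRNA table same-numbered pairs had 0.135 and differently numbered pairs -0.135. With 2 libraries per group these are 1 value by construction, with its sign reversed, so they cannot show pairing. With the replicate block the counts were 5 higher and 1 lower with LncND siRNA and 3 higher and 6 lower with the mimic, all as without it, and 8 differences passed, ETV5 losing its call (adjusted p = 0.0512). Where leaving out a library left 1 in a group, that library was assumed to vary like the others. The depth is unknown, so its limits could not be set.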
